A study of Mus musculus with 23 samples.

Results

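The genes described here are 10 established markers of microglia, the resident macrophages of the brain, followed across every library of a study of mouse hippocampal cultures: Aif1, Csf1r, Cx3cr1, C1qa, C1qb, C1qc, Tyrobp, Trem2, P2ry12 and Itgam. They were found by matching gene symbols to Ensembl IDs, and all 10 of 10 were present among the 55487 gene IDs counted per library. The cultures came from the hippocampi of C57Bl/6 pups at postnatal day 1, dissociated and seeded on 1 side of microfluidic chambers (XONA), with magnetic nanoparticles (MNPs) in the medium at 5 µg/ml in every group. The stretched groups, titled "treated", were held in a magnetic field gradient of 50 T/m between DIV 1 and DIV 6 (days in vitro), and the control groups had MNPs and a null gradient. RNA was taken from the axonal compartment, labelled a pure axonal preparation, or from the side of the chamber where the cell bodies lie, called soma here, whose RNA the labels describe as coming from the total cell culture. There were 23 libraries: 5 of control axon and 6 each of stretched axon, control soma and stretched soma. The labels do not say whether libraries of a group came from separate cultures or litters, so p-values measure the spread between these libraries only.

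Microglia derive from yolk sac progenitors, depend on signalling through the receptor CSF1R, and reach hippocampal cultures with the dissociated tissue; no step of the labels' protocols selects for or against them. They sense neurons through CX3CR1, the receptor for neuronal fractalkine, and damage through the nucleotide receptor P2RY12. TREM2, a receptor for lipids and lipoproteins, passes its signal through the adaptor TYROBP (DAP12), and both act in the clearance of debris. The chains encoded by C1qa, C1qb and C1qc assemble into C1q, the recognition molecule of the classical complement pathway, which tags synapses for removal. Itgam encodes CD11b, the alpha chain of complement receptor CR3, and Aif1 encodes the actin-binding protein IBA1. Microglia are the main source of C1q in the brain, and border macrophages of the meninges and vessels express most of the same genes.

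Total counts per library ranged from 16369153 to 43048953, so that 3 counts stood for between 0.0697 and 0.183 counts per 1000000 assigned counts (CPM). Axonal libraries held between 4263 and 10242 genes with a count and soma libraries between 22452 and 24575. No pair of replicate libraries agreed within sampling noise. The labelled cell types were checked against defining markers. The 6 neuron markers summed to between 4487 and 5396 CPM in soma libraries and to between 733 and 2939 CPM in axonal libraries, where the neuronal tubulin gene Tubb3 ranged from 19.8 to 1456 CPM. Gfap, the astrocyte intermediate filament gene, stood between 2867 and 20253 CPM in axonal libraries, so a glial marker was abundant in every axonal library. The 9 markers of lymphocytes, neutrophils and red cells summed to at most 1.63 CPM in any library.

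Upstream sequences were examined because the members share expression in myeloid cells. PU.1, encoded by Spi1, is a transcription factor of the myeloid lineage that binds elements with the core GAGGAA. The C1q genes lie together on chromosome 4 (GRCm38), where C1qb (chr4:136880129-136886187), C1qc (chr4:136889804-136893065) and C1qa (chr4:136895917-136898803) are all transcribed from the minus strand within 18.7 kb. Trem2 lies on chromosome 17 (chr17:48346401-48354147, plus strand). The stretches below are from RefSeq (GRCm38.p6), lie upstream of the first annotated exon, and belong to the C1q genes with a window in that table and to Trem2. They are chr4:136886201-136886450 (minus strand), chr4:136893066-136893164 (minus strand) and chr17:48346151-48346400 (plus strand), written 5′ to 3′ with the core, or its reverse complement TTCCTC, in capitals.
C1qb: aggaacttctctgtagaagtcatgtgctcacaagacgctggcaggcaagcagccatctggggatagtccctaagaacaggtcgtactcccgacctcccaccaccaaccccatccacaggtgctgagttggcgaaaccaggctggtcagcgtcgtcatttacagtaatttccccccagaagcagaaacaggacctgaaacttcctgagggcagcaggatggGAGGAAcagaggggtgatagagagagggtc
C1qc: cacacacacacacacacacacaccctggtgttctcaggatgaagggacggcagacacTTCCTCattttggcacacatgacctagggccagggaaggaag
Trem2: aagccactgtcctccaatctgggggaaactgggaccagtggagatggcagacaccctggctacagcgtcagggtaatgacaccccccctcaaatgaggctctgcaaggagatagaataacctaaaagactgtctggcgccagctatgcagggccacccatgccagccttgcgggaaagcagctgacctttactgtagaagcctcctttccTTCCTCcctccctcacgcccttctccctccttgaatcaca
Windows of 250 bases before the RefSeq start were in the table for 7 of the 10 members, and 5 of the 7 (C1qb, C1qc, Trem2, Itgam and Aif1) held the core on either strand. The same 6 letters were found in 7639 of 32851 windows of that length (23.3%). The windows of P2ry12 and Cx3cr1 held no match. A match is a description of the sequence and not a binding site.

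In soma libraries every member was counted in every library. All 120 of 120 pairs of member and library held at least 1 count, and 118 held more than 3, the exceptions being Itgam in control replicate 1 and stretched replicate 4. Per kilobase of the longest protein-coding transcript, the mean level in control soma was highest for the secreted complement chains and for the adaptor. C1qb stood at 19.5 ± 5.44 CPM per kb (SD, n = 6), Tyrobp at 14.2 ± 4.59, C1qa at 13.2 ± 4.72 and C1qc at 11.1 ± 4.63. Trem2 followed at 3.82 ± 2.03 CPM per kb, then Csf1r at 1.51 ± 0.514, Aif1 at 1.44 ± 0.687, P2ry12 at 0.809 ± 0.561, Cx3cr1 at 0.410 ± 0.250 and Itgam at 0.0648 ± 0.0469. Each neighbouring pair in that order overlapped in range between libraries, whereas the ends of the order, C1qb and Itgam, were far apart. The order in stretched soma was the same except that C1qc, at 9.78 ± 3.27 CPM per kb, moved ahead of Tyrobp (8.39 ± 1.14) and C1qa (5.35 ± 1.18). There, Trem2 (2.23 ± 0.427) lay below C1qa without overlap, and Itgam (0.0770 ± 0.0335) lay below Cx3cr1 (0.428 ± 0.143) without overlap.

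**Figure D1:**
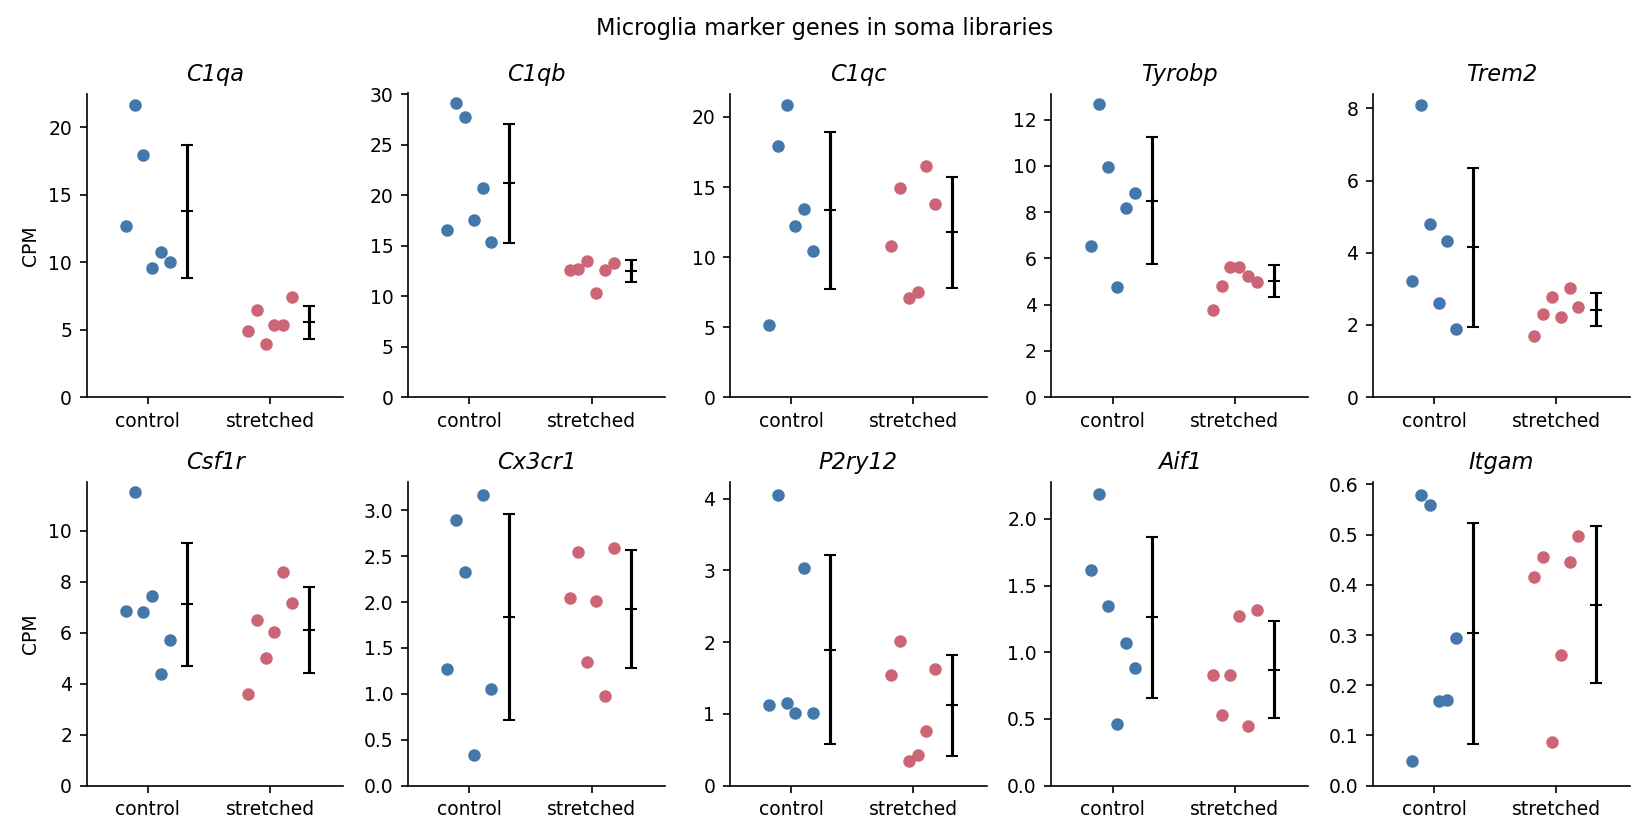
Level of each of the 10 members in soma libraries, in CPM on axes that start at 0. Points are libraries (6 control in blue, 6 stretched in red, in order of replicate number), and bars give the mean ± SD. The stretched values of C1qa (3.92 to 7.42 CPM) and C1qb (10.3 to 13.5 CPM) all lie below the control values, while the other members overlap.

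Summed over the 10 members, soma libraries held 73.3 ± 23.5 CPM in control cultures (SD, n = 6, range 55.0 to 111) and 47.6 ± 7.05 CPM in stretched cultures (n = 6, range 40.5 to 55.1). The stretched mean was 0.649 of the control mean, and 5 of the 6 stretched libraries lay below every control library. The sums rest on 10913 counts in control and 7360 in stretched libraries. The sums are weighted to the members with the highest levels and do not show that every member fell. Control replicate 2 was the highest control library for 8 of the 10 members, the exceptions being C1qc and Cx3cr1, and without it the difference in sums fell from -25.7 to -18.2 CPM. In bulk RNA, fewer microglia and less of these RNAs per microglial cell cannot be told apart.

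The first question was whether microglial RNA on the cell-body side differed between stretched and control cultures. C1qa, C1qb and Tyrobp were lower in stretched soma, and no member was higher. Of the 10 members, 9 passed the filter on low counts, and 3 of these were lower at an adjusted p under 0.05 (edgeR quasi-likelihood test, Benjamini-Hochberg over 15632 genes); over all genes tested, 13.9% were called lower and 11.2% higher. The median log2 fold change was -0.80 over the 9 members tested and -0.03 over all genes. A share of 3 in 9 stands on few genes, and nothing particular to these genes is read from it.

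Among the complement chains, C1qa ranged from 9.58 to 21.6 CPM in control soma (median 11.7) and from 3.92 to 7.42 CPM in stretched soma (median 5.32). All 6 stretched libraries lay below all 6 control libraries. The log2 fold change was -1.35 (SE 0.22, edgeR adjusted p = 0.00313). C1qb ranged from 15.4 to 29.1 CPM in control (median 19.1) and from 10.3 to 13.5 CPM in stretched soma (median 12.6), again without overlap. Its log2 fold change was -0.80 (SE 0.16, edgeR adjusted p = 0.00616). C1qa and C1qb were the only members without overlap, and 2.73% of the genes tested had every stretched library below every control library. C1qc went from a range of 5.13 to 20.9 CPM (median 12.8) to one of 7.06 to 16.5 CPM (median 12.3). The groups overlapped across most of their range, and the change, -0.22 on the log2 scale (SE 0.29, edgeR adjusted p = 0.601), did not pass.

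The chains of C1q are needed together in the assembled molecule, so their ratios within a library were compared, a choice made after the values had been seen. A ratio within a library is free of the scaling between libraries. The log2 ratio of C1qa to C1qc counts averaged 0.10 ± 0.63 in control soma and -1.04 ± 0.39 in stretched soma (SD, n = 6 each). Every stretched library lay below every control library. The difference of -1.14 had p = 0.00216 in an exact two-sided permutation test, the smallest p that 6 against 6 libraries allow, or 0.00649 after adjustment over the 3 ratios. The log2 ratio of C1qa to C1qb averaged -0.65 ± 0.23 in control and -1.19 ± 0.35 in stretched soma (exact permutation p = 0.0108, adjusted 0.0162), with the groups overlapping. The ratio of C1qb to C1qc, 0.75 ± 0.47 against 0.16 ± 0.49, did not pass (exact permutation p = 0.0563, adjusted 0.0563). The C1qa to C1qc ratio in control replicate 1, 1.30, stood apart from the other controls, and C1qc in that library was the lowest of the control group.

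**Figure D2:**
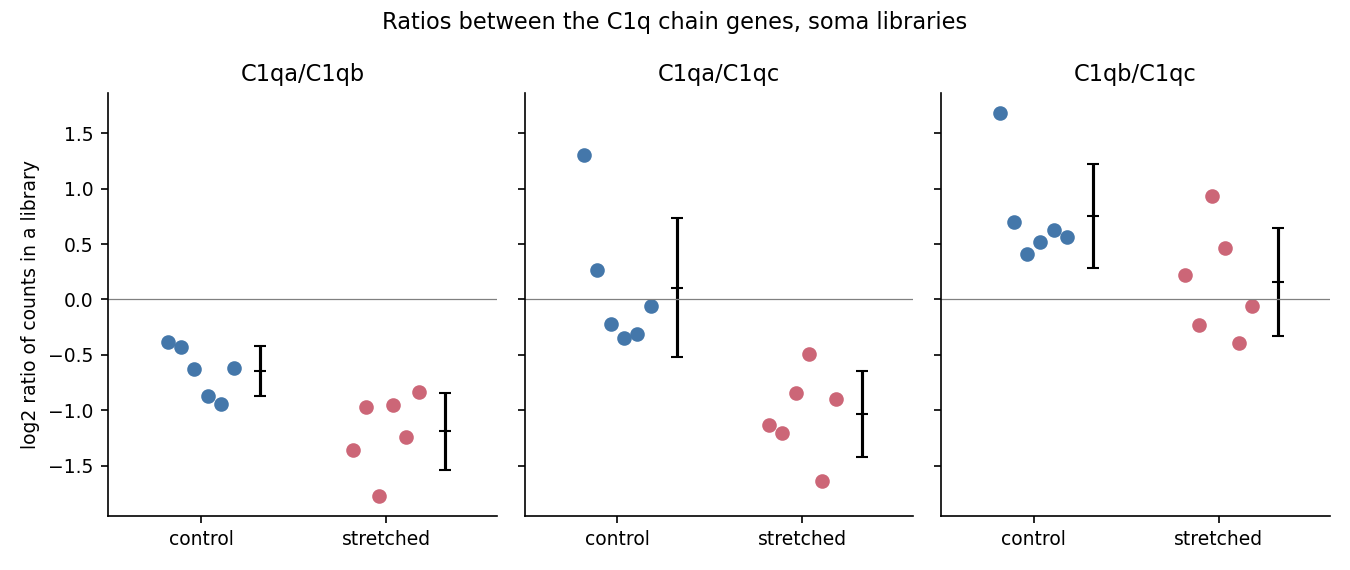
Log2 ratios of the counts of the C1q chain genes within each soma library (6 control in blue, 6 stretched in red, bars: mean ± SD, grey line: equal counts). In the middle panel all stretched libraries (-1.64 to -0.49) lie below all control libraries (-0.35 to 1.30), and in the other panels the groups overlap.

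Of the receptor complex, Tyrobp ranged from 4.77 to 12.7 CPM in control soma (median 8.49) and from 3.79 to 5.63 CPM in stretched soma (median 5.09). Control replicate 4, the lowest control, fell inside the stretched range, and the other 5 controls lay above it. The log2 fold change was -0.80 (SE 0.21, edgeR adjusted p = 0.0151). With the replicate number as a block, this call was lost. Trem2 ranged from 1.90 to 8.10 CPM in control (median 3.77) and from 1.71 to 3.03 CPM in stretched soma (median 2.40). Its log2 fold change of -0.82 (SE 0.30) was as large as that of Tyrobp, but the edgeR adjusted p of 0.0584 did not pass, and the groups overlapped.

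None of the surface receptors passed. Csf1r ranged from 4.37 to 11.5 CPM in control soma (median 6.84) and from 3.58 to 8.38 CPM in stretched soma (median 6.26), a change of -0.26 on the log2 scale (SE 0.24, edgeR adjusted p = 0.431). P2ry12 had medians of 1.14 CPM in control and 1.15 CPM in stretched soma. Control replicates 2 and 5, at 4.05 and 3.04 CPM, stood above all other soma libraries, and the fitted change was lower in stretched soma without passing (log2 fold change -0.81, SE 0.49, edgeR adjusted p = 0.234). Cx3cr1 had medians of 1.80 and 2.03 CPM, its log2 fold change being 0.01 (SE 0.42, edgeR adjusted p = 0.986). Aif1 had medians of 1.21 CPM in control and 0.830 CPM in stretched soma (log2 fold change -0.57, SE 0.38, edgeR adjusted p = 0.279). Itgam, with 47 counts in all control and 56 in all stretched soma libraries, fell below the filter and was not tested. Counts of Cx3cr1, Aif1, P2ry12 and Itgam ran from 1 to 98 per soma library, which limits the differences these comparisons can detect.

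The stretch effect was related to transcript length across all genes, and the members differ widely in length. Over 15619 genes the Spearman correlation of length and log2 fold change was 0.482, given as a description across genes, which are not independent replicates. Genes with a longest protein-coding transcript of 1000 nt or less had a median log2 fold change of -0.40, and 31.7% of them were called lower. Those above 1000 and up to 2000 nt had a median of -0.30 with 30.6% called lower, and those over 4000 nt a median of 0.23 with 4.10% called lower. C1qa (1040 nt), C1qb (1088 nt), Trem2 (1088 nt), C1qc (1203 nt), Aif1 (875 nt) and Tyrobp (597 nt) are in the first pair of classes, and Csf1r (4701 nt), Cx3cr1 (4493 nt) and Itgam (4682 nt) are in the last. With an offset for transcript length and GC content in each library, 2 members were called lower. C1qa had a log2 fold change of -0.94 (edgeR adjusted p = 0.0109) and C1qb of -0.46 (edgeR adjusted p = 0.0463), whereas Tyrobp, at -0.43, did not pass (edgeR adjusted p = 0.139). C1qa and C1qc differ little in length (1040 and 1203 nt) and in GC content (59.5% and 57.5%). The part of length and GC content in the ratio of these genes was not tested.

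**Figure D3:**
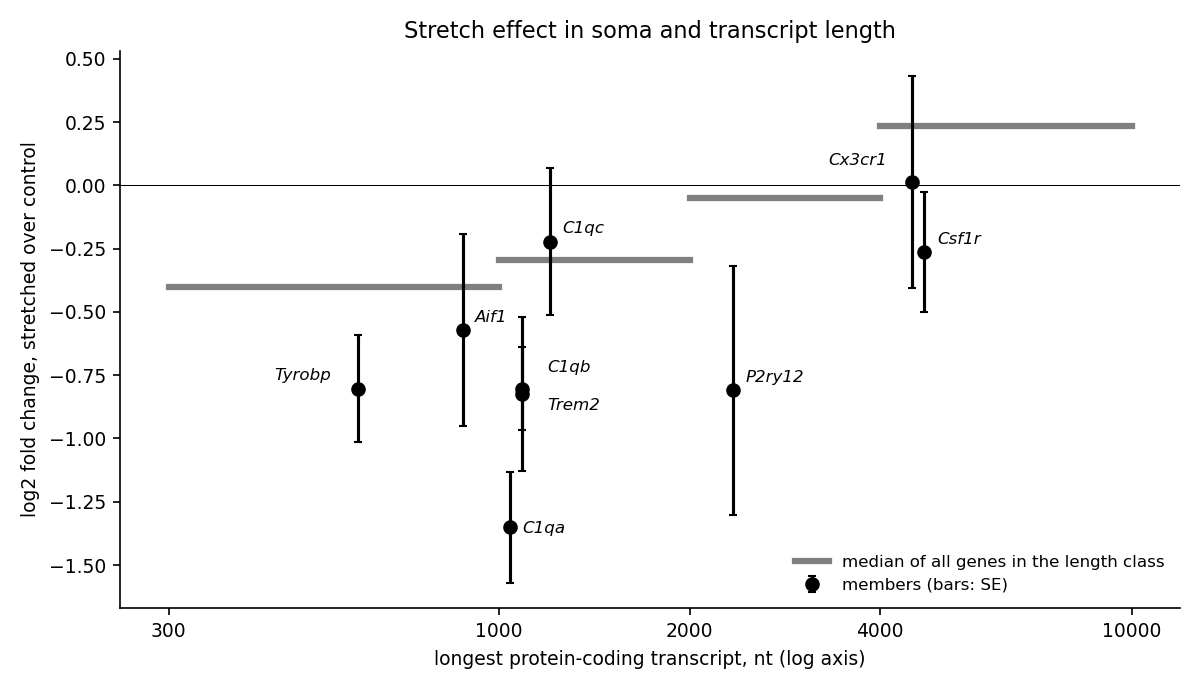
Log2 fold change of the 9 tested members in soma (black points, bars: SE) against the length of the longest protein-coding transcript on a log axis, with the median of all genes in each of 4 length classes (grey lines). C1qa (-1.35) lies well below the median of its class (-0.30), and C1qc (-0.22) lies close to it.

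The soma libraries also fell into 2 sets by the Y-linked gene Eif2s3y, which the labels do not explain: control replicates 1 to 3 and stretched replicates 1, 2 and 8 had 24.7 to 28.7 CPM, and replicates 4 to 6 of both groups had 5.39 to 13.2 CPM. Both groups were split evenly, and no member separated the sets. The summed level of the members went from 86.4 to 50.2 CPM in the libraries with more Eif2s3y (n = 3 each) and from 60.2 to 45.1 CPM in those with less (n = 3 each). With the sets as a covariate the same 3 members were called. In the libraries with more Eif2s3y alone 4 were called, Trem2 being the fourth, and in those with less alone none were, where edgeR called none of 15718 genes and 2739 had an unadjusted p under 0.05. C1qa had a log2 fold change of -1.47 in the first set and -1.09 in the second. When the effect of stretch was compared between the sets, edgeR called 0 of 15632 genes (1169 at an unadjusted p under 0.05), and for the members the edgeR adjusted p was 0.658 or more.

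**Figure D4:**
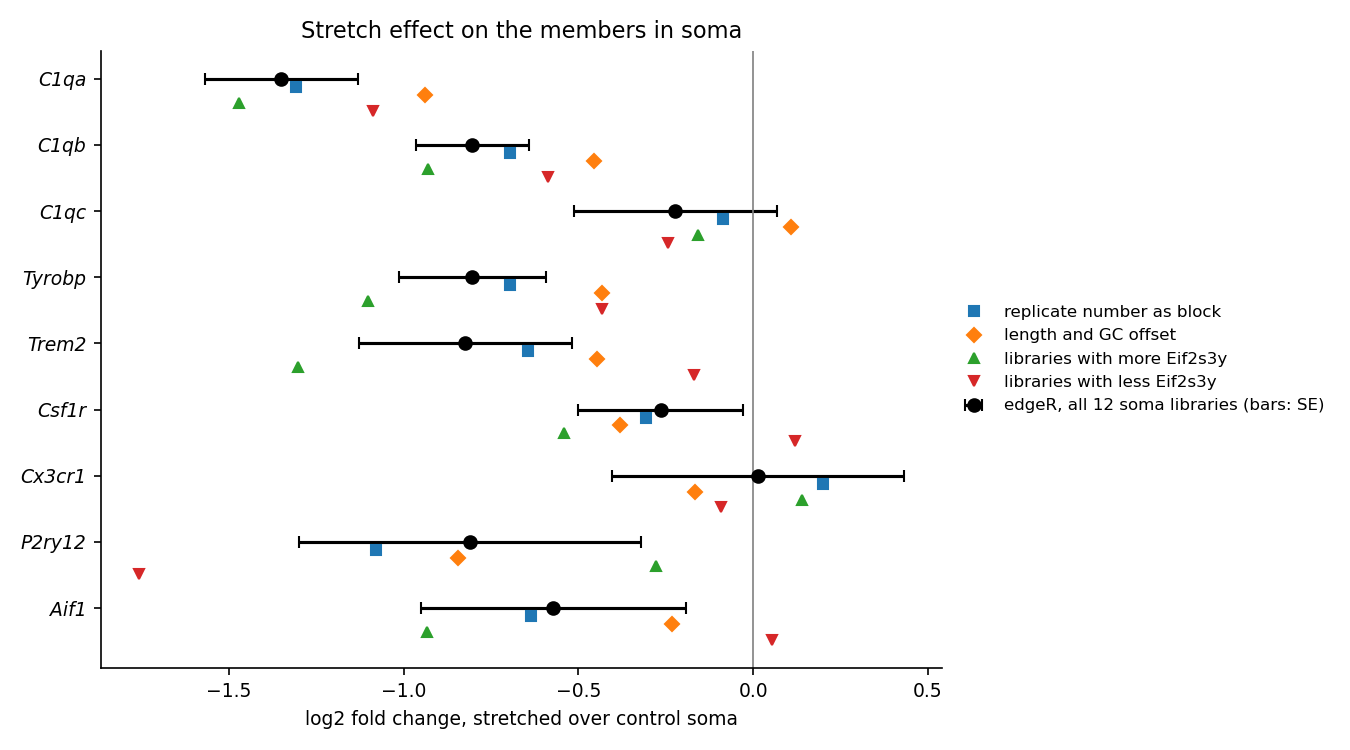
Log2 fold change of the 9 tested members, stretched over control soma, with all 12 soma libraries (black, bars: SE), with the replicate number as a block (squares), with an offset for transcript length and GC content (diamonds) and within the libraries with more (triangles up) or less (triangles down) Eif2s3y. C1qa, C1qb, Tyrobp, Trem2 and P2ry12 stay below 0 in each of the 5 estimates. Aif1 and Csf1r lie above 0 in the libraries with less Eif2s3y, C1qc lies above 0 with the offset, and Cx3cr1 lies on both sides of it.

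The second question was whether these RNAs appeared in the axonal compartment. They had at least 1 count in 9 of the 11 axonal libraries and more than 3 counts in 4 of them. Of 110 pairs of member and axonal library, 17 (15.5%) held at least 1 count and 11 (10.0%) held more than 3. The 8343 genes whose mean soma level lay in the range of the members (0.332 to 16.8 CPM) were counted in 15.4% of their pairs, and in 12.9% with more than 3 counts, so the members were about as sparse as other genes of that level. The share of those genes counted in 1 axonal library ranged from 9.43% to 31.2%. Among pairs with more than 3 counts the median level was 46.7 CPM for the members, above the mean soma level of any member, and 15.8 CPM for those genes.

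Of the 11 pairs with more than 3 counts, 6 lay in 1 library, and without that library the pairs with at least 1 count fell from 17 to 11. This library, stretched axon replicate 8, also counted the highest share of genes in the members' soma range, 31.2% against a median of 12.2% over the 11 libraries. It held 6 members: C1qa at 89.9 CPM (1778 counts), C1qb at 89.1 CPM (1762 counts), Csf1r at 46.7 CPM (924 counts), C1qc at 38.4 CPM (759 counts), Aif1 at 17.2 CPM (341 counts) and Tyrobp at 1.57 CPM (31 counts). Control axon replicate 2 held C1qb at 131 CPM (2627 counts) and Tyrobp at 68.2 CPM (1366 counts) and no other member. Stretched axon replicate 1 held C1qc at 736 CPM (19310 counts), 1 count of Cx3cr1 and none of C1qa or C1qb. Stretched axon replicate 2 held Csf1r at 43.5 CPM (712 counts) and C1qa at 0.550 CPM (9 counts). In the other 7 axonal libraries no member had more than 3 counts. Itgam had 1 or 2 counts in control axon replicates 1, 3 and 7 and in stretched axon replicate 6, and Csf1r had 1 count in stretched axon replicate 5. Control axon replicate 5, with the most genes counted (10242), and stretched axon replicate 4 held no count of any member. Trem2 and P2ry12 had no count in any of the 11 axonal libraries, where 3 counts would stand for at most 0.183 CPM.

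**Figure D5:**
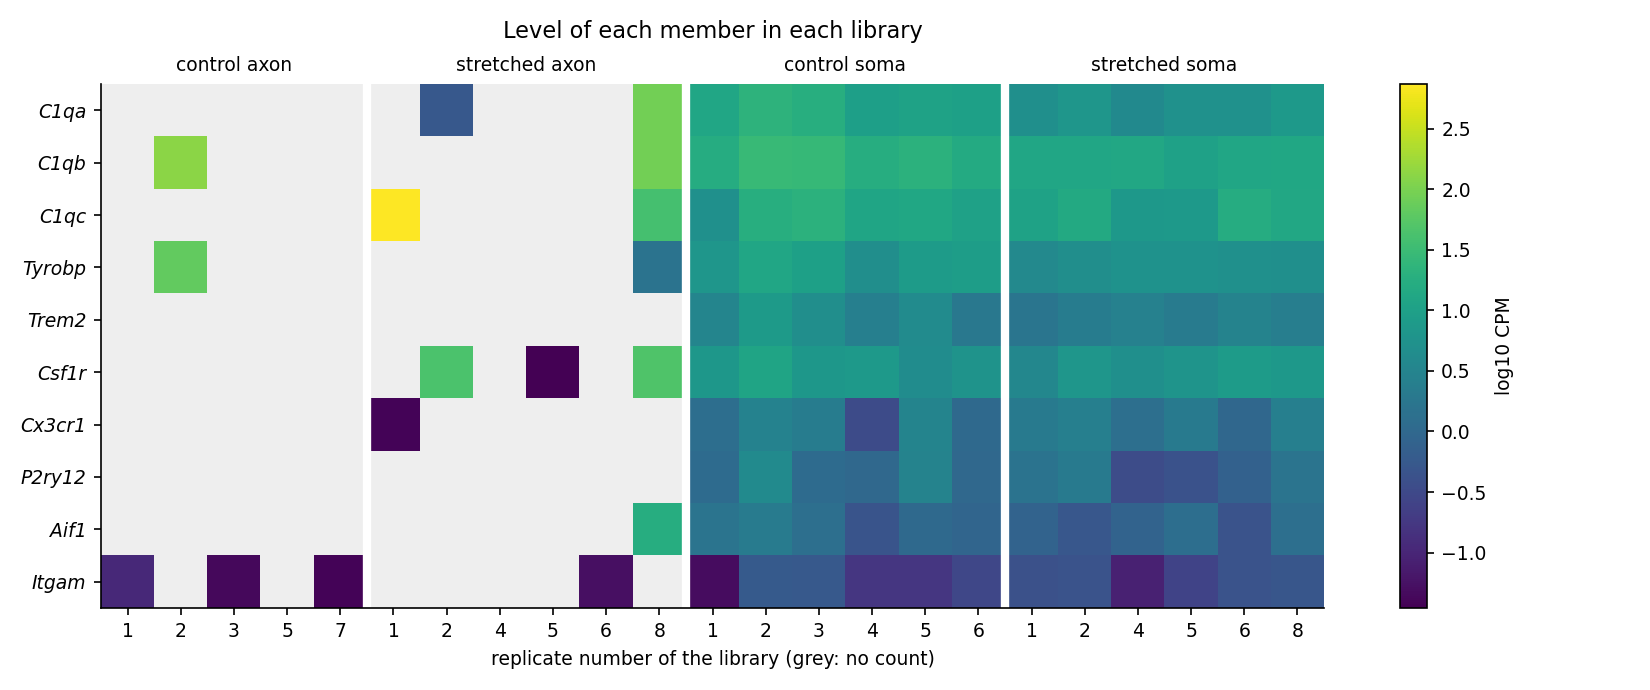
Level of each member in each of the 23 libraries, as log10 CPM in colour, with grey where no read was counted. Soma libraries are filled throughout, while in the axonal libraries 17 of 110 cells are filled, 6 of them in stretched axon replicate 8.

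Other myeloid genes were counted in the same axonal libraries. Of 31 genes of 3 lists (other microglia identity genes, general myeloid genes, border macrophage genes), between 24 and 28 had more than 3 counts in each soma library. In axonal libraries the number ranged from 1 to 15 with a median of 3. Stretched axon replicate 8 held 15, among them Fcrls, Fcer1g, Mpeg1 and Stab1, and control axon replicate 2 held 8, among them Tmem119, Ptprc, Fcer1g and Ms4a7. Stretched axon replicate 1, with C1qc at 736 CPM, held 2 of the 31, Lyz2 and Coro1a. The part of other myeloid RNA in the levels of the members was not tested.

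Axonal and soma libraries of control cultures were compared next. Of the 9 members tested, 7 were lower in control axons, where they had no count: C1qa, C1qc, Csf1r, Trem2, P2ry12, Cx3cr1 and Aif1. These 7 passed the filter on low counts through the soma libraries alone, so they could only be called lower, and their number is not evidence about the members. The edgeR adjusted p-values lay between 7.6e-06 for Csf1r and 2.7e-04 for Cx3cr1, and 34.4% of the 14728 genes tested were called lower in axons. By limma voom 5 members were called lower (Csf1r, C1qa, C1qb, C1qc and Tyrobp), and Aif1, Cx3cr1, Trem2 and P2ry12 did not pass (limma adjusted p from 0.0529 to 0.170); it called 9715 of the 14728 genes lower. Against the level that 3 counts per axonal library stand for, C1qa (13.8 ± 4.91 CPM in soma) was at least 108-fold lower in axons and C1qc at least 105-fold lower. Csf1r was at least 56.0-fold lower, Trem2 at least 32.7-fold, P2ry12 at least 14.9-fold, Cx3cr1 at least 14.5-fold and Aif1 at least 9.93-fold. These folds cover counting error only. All genes in the members' soma range were counted in only 15.4% of their pairs with axonal libraries. C1qb itself stood at 0 or at 131 CPM in single control axon libraries. The folds therefore do not bound the level in other axonal libraries. C1qb (edgeR adjusted p = 0.987) and Tyrobp (edgeR adjusted p = 0.974) did not pass, both being counted in control axon replicate 2 only. Without that library all 9 members tested were called lower, as were 5821 of the 15238 genes tested in that fit. None of the 9 then had a count in control axons, so they could only be called lower.

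In stretched cultures 8 members were tested and 2 were lower in axons. Trem2, with no count in axons, was at least 17.4-fold lower by the same floor (edgeR adjusted p = 1.3e-06). Cx3cr1 had 1 count in 1 of 6 axonal libraries against a median of 2.03 CPM in soma (edgeR adjusted p = 1.8e-06). Both passed the filter on low counts through the soma libraries alone. They could in practice only be called lower, and their number is not evidence about the members. Over all 14466 genes tested, 28.4% were called lower in axons. Tyrobp (edgeR adjusted p = 0.0791), Aif1, Csf1r, C1qa, C1qb and C1qc did not pass. Without stretched axon replicate 8, 7 members were called lower: Aif1, Cx3cr1, C1qa, C1qb, Tyrobp, Trem2 and P2ry12. Aif1, C1qb, Tyrobp, Trem2 and P2ry12 then had no count in axons and could only be called lower. The rise in number is therefore not evidence about the members. In that fit 6346 of the 15010 genes tested were called lower, against 4112 of 14466 with all libraries. The calls differed between control and stretched cultures in number, and that difference was not tested.

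Between stretched and control axons no member passed edgeR's filter on low counts, and none was tested in that fit. Unfiltered, edgeR tested 8 members and called 0 (4 had an unadjusted p under 0.05). Among genes averaging 1 CPM or more it tested 6 members and called 0, again with 4 at that unadjusted level. A fit of all 4 groups called 4 members higher in stretched axons (Aif1, Csf1r, C1qa and C1qc), as it did 2291 of 16113 genes. These 4 had no count in control axons and could only be called higher, so their number is not evidence about the members. Of the 4947 genes that passed the filter, edgeR called 0 (0%), with 46 at an unadjusted p under 0.05; DESeq2 called 18 and limma voom 10. The summed level of the members ranged from 0 to 199 CPM in the 5 control axon libraries (median 0.0441) and from 0 to 736 CPM in the 6 stretched axon libraries (median 22.0).

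Related gene lists in soma gave the setting of the members. Over all genes tested, 13.9% were called lower and 11.2% higher, shares that stand beside each list below. Of 14 general myeloid genes, all tested, 3 were lower in stretched soma and none higher (median log2 fold change -0.28). Such a number rests on few genes, and nothing particular to the list is read from it. Coro1a, an actin regulator of leukocytes, fell by 0.57 on the log2 scale (SE 0.11, edgeR adjusted p = 0.00496). Lyz2, the lysozyme of macrophages, fell from 468 ± 262 to 268 ± 41.3 CPM (log2 fold change -0.86, SE 0.28, edgeR adjusted p = 0.0401), and Fcgr3, an Fc receptor, fell from 6.07 ± 2.33 to 3.61 ± 1.24 CPM (edgeR adjusted p = 0.0455). The last pair of calls was close to the threshold: leaving out 1 library lost that of Lyz2 in 6 of 12 fits and that of Fcgr3 in 10 of 12, and without control replicate 2 the log2 fold change of Lyz2 was -0.49. Spi1, by contrast, had a log2 fold change of 0.00 (SE 0.37). Of 9 other microglia identity genes 5 were tested and none passed (median log2 fold change -0.35). Of 8 border macrophage genes 5 were tested and none passed, Ms4a7 having the highest level (log2 fold change -0.29, SE 0.24).

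Of 12 genes linked to activated microglia, 10 were tested and 3 were lower, where 13.9% of all genes tested were. Nothing particular to this list is read from so few genes. Spp1, which encodes osteopontin, fell from 370 ± 254 to 155 ± 40.9 CPM (log2 fold change -1.31, SE 0.35, edgeR adjusted p = 0.0185). Lgals3, encoding galectin-3, had a log2 fold change of -0.74 (edgeR adjusted p = 0.0165) and Cd9, a tetraspanin, of -0.38 (edgeR adjusted p = 0.0254). Without control replicate 2, at 872 CPM the highest soma library for Spp1, its log2 fold change was -0.84 (edgeR adjusted p = 0.0408). The call of Cd9 was lost in 5 of the 12 fits that left out 1 library. Of 11 complement genes that act beyond C1q, 10 were tested and none passed, with a median log2 fold change of 0.25; C4b, the highest of them, had 0.43 (SE 0.40, edgeR adjusted p = 0.455). Of 7 signalling genes downstream of Tyrobp 5 were tested and none passed, Lyn having the highest level (log2 fold change 0.05, SE 0.13).

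Of 6 ligands and restraint signals of microglia, all tested, 1 was lower in stretched soma, 2 were higher and 3 did not pass. Over all genes tested, 13.9% were called lower and 11.2% higher, and nothing particular to the list is read from so few genes. Il34, which encodes a neuronal ligand of CSF1R, fell from 8.95 ± 2.30 to 4.72 ± 1.05 CPM (log2 fold change -0.96, SE 0.20, edgeR adjusted p = 0.00696), and all stretched libraries (3.55 to 6.45 CPM) lay below the lowest control library (6.76 CPM). Cd47, the don't-eat-me signal, rose from 162 ± 22.8 to 202 ± 8.60 CPM (edgeR adjusted p = 0.0261), and Cd200, a neuronal restraint signal, from 410 ± 44.8 to 493 ± 25.8 CPM (edgeR adjusted p = 0.0469). With 1 library left out the call of Cd47 was lost in 3 of 12 fits and that of Cd200 in 8 of 12. With the offset for length and GC content Cd47 had a log2 fold change of -0.0033. The other calls in the related lists are given here without that offset, under which 2084 genes were called against 3929 in the main fit. Among markers of other cell types, Tubb3 and Rbfox3 of the 6 neuron markers were lower, none of the 6 astrocyte markers and none of the 5 endothelial markers passed, Mog of the 7 oligodendrocyte markers was higher, and of the 5 mural cell and fibroblast markers Rgs5 was higher and Dcn lower. Of these, the calls of Tubb3 and Rbfox3 were each lost in 9 of 12 fits that left out 1 library, that of Rgs5 in 6 and that of Dcn in 1. Summed neuron markers ranged from 4680 to 5396 CPM in control and from 4487 to 4959 CPM in stretched soma, and their part in the members' change was not tested.

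Within soma, the 9 members that averaged 1 CPM or more tended to vary together. Over 36 pairs of members the median Pearson r across 12 libraries was 0.51, from -0.09 to 0.91, and 34 pairs were above 0. With values centred on the group means the median was 0.55, so libraries of 1 group varied together too. These correlations share libraries and depth and are a description. Among 12899 other genes, the 10 whose levels across the 12 soma libraries were most like the members' mean included Bnip1 (r = 0.94), Ube2r2 (0.93), Gstm2 (0.92) and Dnali1 (0.92), and also H2-M3, Tmem165, Cd63-ps, Meis2 and Efna2 (0.89 to 0.92). None of these 10 is in any of the lists, and only 4 remained among the 10 with group-centred values and 2 by Spearman's rho. Of all listed genes the fibroblast marker Dcn ranked first, at 21 (r = 0.87), then Lyz2 at 22 (r = 0.87) and Spp1 at 25 (r = 0.87). The 13 general myeloid genes compared ranged from -0.31 (Ptprc) to 0.87 with a median of 0.55, and the 6 astrocyte markers had a median of 0.51. The 5 mural cell and fibroblast markers, Dcn among them, had a median of -0.28, and all genes compared one of 0.02. Dcn, Lyz2 and Spp1 are named here for their ranks, after their values were seen.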

How the data were processed

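RNA was measured in 23 libraries of axonal or cell-body compartments, grouped by the labels. The authors deposited 1 file of raw read counts per library, with Ensembl gene IDs. The submitters' processing notes name FastQC 0.11.9, MultiQC 1.12, fastp 0.20.1, STAR 2.7.08a, HTSeq 0.13.5 and the build mm10; per the labels' protocols, libraries were amplified poly(A) cDNA with unique molecular identifiers, read as pairs. Use of those identifiers to remove duplicates, the strand setting and the annotation are not given in the sources used here, so counts are not independent molecules and floors cover counting error only. Reads assigned to no gene, 14.2% to 24.4% per library, were left out.

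Symbols were matched by ID (55141 of 55487). CPM is counts per 1000000 assigned counts, and detection means at least 1 count. Depth ranged from 16369153 to 43048953 counts. Each comparison was fitted on the libraries it compares, with edgeR 4.0.16 (R 4.3.3): filterByExpr, TMM, robust quasi-likelihood F test, Benjamini-Hochberg adjustment over all genes tested, threshold 0.05. The SE is the log2 fold change divided by the square root of F. Folds against groups without counts use 3 counts per library. Alternatives were RLE, TMMwsp or no scaling factors, no filter or a mean of 1 CPM, DESeq2 1.42.0, limma 3.58.1 voom, all groups in 1 fit, the replicate number as a block, a length and GC offset (mgcv 1.9.3, GENCODE vM21), the Eif2s3y sets, and leaving out each library. Ratios of C1q chains were compared by exact permutation (scipy 1.17.1). Likeness and the correlations between members used log2(TMM-normalized CPM + 1). The main edgeR fit was tested on counts simulated from the soma libraries. The axonal fits and the alternatives were not tested in this way.

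All 10 members are described. From each other list the genes that passed are named, at most 4 by smallest p, or else the gene with the highest mean; of the 10 genes most like the members most are named. A gene that these rules would name is left out in 2 cases and not reported here. The myeloid genes named in single axonal libraries, the C1q ratio tests and the test of the difference between the Eif2s3y sets were chosen after values were seen. Members and lists were chosen with earlier results of these data known.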

Additional observations from a re-analysis of the deposited data

Results flagged for a closer look

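In groups of 4 to 10 libraries the highest and lowest library were compared with their nearest neighbour by Dixon's test. Of 35 sets of values (each member and the members' sum, in each group where the test applied), 11 had a library that stood apart, 10 of them in axonal groups. Chance gives about 1 in 20 for values that vary freely, which does not apply where all other libraries are at 0: there a single count is enough to stand apart.

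In control axons, replicate 2 stood apart for C1qb (131.1 CPM), Tyrobp (68.16 CPM) and the summed members (199.3 CPM). In stretched axons, replicate 8 stood apart for Aif1 (17.25 CPM), C1qa (89.93 CPM), C1qb (89.12 CPM) and Tyrobp (1.568 CPM). Replicate 1 stood apart for C1qc (736.2 CPM) and, with a single count, for Cx3cr1 (0.03813 CPM), and replicate 6, also with a single count, for Itgam (0.05207 CPM). In most of these axonal sets the other libraries had no count. In stretched soma, replicate 5 was the lowest for C1qb, at 10.35 CPM, below a median of 12.6 CPM.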

How the results depend on the processing

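The 3 members called lower in stretched soma were called under other scaling factors, other filters, limma voom and the Eif2s3y covariate, and leaving out 1 library called 3 to 4. DESeq2 called 4. An offset for length and GC content left 2, and that offset with the replicate block left 1 (C1qa). None were called with all 4 groups in 1 fit, where the axonal libraries share the estimate of the spread (0), or in the libraries with less Eif2s3y alone (0). Replicate numbers were not taken to pair the libraries. In soma, same-numbered libraries had a mean correlation of 0.189, with a lowest of 0.0906, against -0.030 for other pairs. Each number found in both soma groups lay in the same Eif2s3y set in both. What libraries of 1 number share is not given by the labels. With the replicate block, 2 members were called in soma (C1qa and C1qb, while Tyrobp had an edgeR adjusted p of 0.0543), 0 between axons, 7 between axon and soma in control cultures and 6 in stretched cultures. For stretched axons against soma the count of 2 also became 4 without a filter, 1 with a mean of at least 1 CPM, 5 by limma voom and 4 with all groups in 1 fit, and ranged from 2 to 7 with 1 library left out. For control axons against soma the count of 7 became 5 by limma voom. That fit lost Aif1, Cx3cr1, Trem2 and P2ry12 and gained C1qb and Tyrobp. The count ranged from 6 to 9 with 1 library left out. In both comparisons members without axonal counts could only be called lower, so these numbers are not evidence about the members. Between axons, the fit of all 4 groups called 4 members higher in stretched axons (Aif1, Csf1r, C1qa, C1qc). These had more than 3 counts in only 1 or 2 of those libraries and no count in control axons, so they could only be called higher. Pairs counted in axons numbered 11 with more than 3 counts, 14 after thinning and 11 to 17 with 1 library left out. Of the 10 most alike genes, 4 stayed with group-centred values and 2 by Spearman's rho.

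Some log2 fold changes in soma changed sign, none of them among the 3 called members. In the libraries with less Eif2s3y they were 0.055 for Aif1, 0.12 for Csf1r and -0.092 for Cx3cr1. With the offset they were -0.17 for Cx3cr1, 0.11 for C1qc and -0.0033 for Cd47, and with the offset and the replicate block 0.24 for C1qc and 0.0069 for Tubb3. Cx3cr1 ranged from -0.22 to 0.27 with 1 library left out. The cause of these changes was not tested. Over all genes in soma, 1757 were called higher and 2172 lower, and 2138 and 1867 with total counts only; the number called went from 3929 to 5304 with the Eif2s3y covariate, 2084 with the offset, 1801 with the offset and the block, and 2666 to 6072 with 1 library left out.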

Other observations

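The 2 sets of soma libraries by Eif2s3y differed in complement genes that are not microglial markers. C1ra, C1s1, C3, C4b and Serping1, 5 of the 11 complement genes beyond C1q, did not overlap between the sets, and all 5 were higher in the 6 libraries with more Eif2s3y. C3, the central complement component, stood at 11.7 to 23.1 CPM in those and at 2.28 to 5.86 CPM in the others, and C4b at 19.9 to 38.2 against 8.89 to 18.9 CPM. All 6 astrocyte markers separated the sets too, Gfap ranging from 7556 to 10496 CPM against 3546 to 4436 CPM, as did Apoe and Lpl among the 12 genes linked to activated microglia. None of the 10 members, the 9 other microglia identity genes, the 14 general myeloid genes or the 8 border macrophage genes did. Over 13916 genes averaging 1 CPM or more, 5.41% separated the sets.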
